A study of Mus musculus with 85 samples.

Results

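The miR-30 family in the mouse heart is described here by 8 mature miRNAs, the 5p arms mmu-miR-30a-5p, mmu-miR-30b-5p, mmu-miR-30c-5p, mmu-miR-30d-5p and mmu-miR-30e-5p and the 3p arms mmu-miR-30a-3p, mmu-miR-30d-3p and mmu-miR-30e-3p. The members were chosen by name, and they are 8 of the 1977 rows of the table. The table holds 4 further miR-30 rows, which were used as an alternative denominator only. Small RNA was sequenced from the hearts of 85 female mice, 1 library per animal, with mice of 16 weeks fed chow over 8 weeks and a high-fat/high-sucrose diet over the next 8. The series title gives 85 strains, and the labels give an animal number and a library number but not the strain, genotype or alleles of any animal. The text of the study gives fewer strains, so whether animals share a strain is not known. All 85 libraries share sex, tissue, diet and age, so there is 1 labelled group and no control group. The spread between libraries holds differences between strains, animals and library preparations, which cannot be told apart.

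A microRNA is cut from a hairpin precursor whose stem gives a 5p and a 3p arm, and usually 1 arm is loaded into an Argonaute protein while the other is degraded. The loaded arm pairs with messenger RNAs mainly through its seed, bases 2 to 8 from its 5′ end, and represses them. The miR-30 family is abundant in cardiomyocytes and in many other cell types, and its known targets include messages for extracellular matrix and autophagy proteins, among them the one for connective tissue growth factor.

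Sequences from RefSeq (build GRCm38.p6) matched 5 of the 8 members. They are shown because the members differ by so few bases, with the seed in capitals, first the 5p arms that share the seed GUAAACA and then the 3p arms that share the seed UUUCAGU.
miR-30a-5p: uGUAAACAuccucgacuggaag
miR-30c-5p: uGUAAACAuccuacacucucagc
miR-30e-5p: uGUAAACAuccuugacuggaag
miR-30a-3p: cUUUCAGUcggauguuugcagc
miR-30e-3p: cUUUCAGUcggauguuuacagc

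Counted from 1 at the 5′ end and with miR-30a first, the 5p arms of miR-30a and miR-30e differed at 1 of 22 bases, C13U, and their 3p arms at 1 of 22 bases, G18A. Over the first 22 bases miR-30c-5p differed from miR-30a-5p at 5, C13A, G14C, G18C, G19U and A20C. All of these differences lie behind the seed. Of the 1678 rows of the table with a RefSeq sequence, 4 carried the seed GUAAACA, and the only one outside the family, miR-384-5p, had 2 counts in all libraries together. Only miR-30a-3p and miR-30e-3p carried the seed UUUCAGU among those rows.

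The hairpins of miR-30a and miR-30e are shown because their arm ratios are compared further on, with the 5p and then the 3p arm in capitals.
Mir30a: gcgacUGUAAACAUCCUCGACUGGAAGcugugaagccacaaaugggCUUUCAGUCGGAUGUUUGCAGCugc
Mir30e: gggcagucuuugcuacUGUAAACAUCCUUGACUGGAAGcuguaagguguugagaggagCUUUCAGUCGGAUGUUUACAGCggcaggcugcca

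On GRCm38, Mir30a lies on the plus strand at chr1:23272269-23272339, in no other annotated gene of GENCODE release M21. Mir30c-2 lies 19361 bases further on, at chr1:23291701-23291784 on the same strand, in an exon of the long non-coding RNA gene Gm27028. Mir30e (chr4:120772606-120772697, minus strand) and Mir30c-1 (chr4:120769534-120769622, minus strand) are 2983 bases apart, both in introns of Nfyc, which encodes a subunit of the transcription factor NF-Y and has the same strand. MiR-30c-5p has the same sequence at both of its loci, so its reads match 2 genes. MiR-30f is annotated on the strand opposite Mir30e, and whether the counting used strand is not given in the sources used here.

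Library totals ran from 1457 to 30202 counts with a median of 12248, and 548 rows had a count in any library. The heart label was checked against its markers. All 6 cardiomyocyte miRNAs listed (miR-1a, miR-133a, miR-133b, miR-208a, miR-208b and miR-499) were detected, and together they took 17.7% to 29.3% of each library. The first principal component of 46 miRNAs, with the miR-30 rows left out, held 75.1% of the variance and parted the libraries into 58 (set A) and 27 (set B). Set B is made of the libraries numbered 1 to 10, 15 to 18, 20 to 21 and 49 to 59, and library 14, the shallowest, is in set A. These sets were found in the data and are not conditions, so values are given in each of them and no test was run between them. The summed leukocyte markers, 3 of 3 detected, ran from 0.618% to 3.93% of counts in set A and from 0.331% to 0.981% in set B. The summed fibroblast markers, 2 of 2 detected, ran from 0.384% to 1.37% and from 0.865% to 1.90%. Of these, miR-214-3p had only 6 counts in all libraries together, so the sum is almost wholly miR-199a-3p. The part of these cells, of strain and of library preparation in the values below was not tested.

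The 8 members had 94906 of all 1142199 counts, or 8.31%. Per library the family took between 5.50% and 11.2% of all counts, with a median of 8.39%. The range was 6.05% to 11.2% in set A against 5.50% to 8.39% in set B, and 16 of the 58 libraries of set A lay at or below the highest of set B. In bulk tissue, fewer cells that express a miRNA and less of it per cell cannot be told apart. The 5p arms made up 98.4% of the family's counts.

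MiR-30e-5p was the most abundant member over all libraries, with 41157 counts, 43.4% of the family (95% Wilson interval 43.1% to 43.7%) and the seventh highest count in the table. Its counts per library ran from 43 over a median of 466 to 1451. Its share of the family ran from 37.1% to 57.4% in set A, with a median of 49.3%, and from 13.1% to 31.1% in set B, with a median of 19.2%. The ranges did not overlap. The sets were cut on the other kept miRNAs, and how many of those also part the sets without overlap was not counted. MiR-30e-5p had the highest count of the family in 58 of 58 libraries of set A and in 1 of 27 of set B.

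MiR-30c-5p, the member with 2 loci, had 18918 counts and 19.9% of the family (19.7% to 20.2%). Its share ran the other way. It was 11.02% to 22.4% in set A, with a median of 16.0%, and 24.3% to 43.1% in set B, with a median of 34.2%, again without overlap. Here too, how many other kept miRNAs part the sets without overlap was not counted. MiR-30c-5p had the highest count of the family in 24 of the 27 libraries of set B and in 0 of the 58 of set A.

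**Figure D1:**
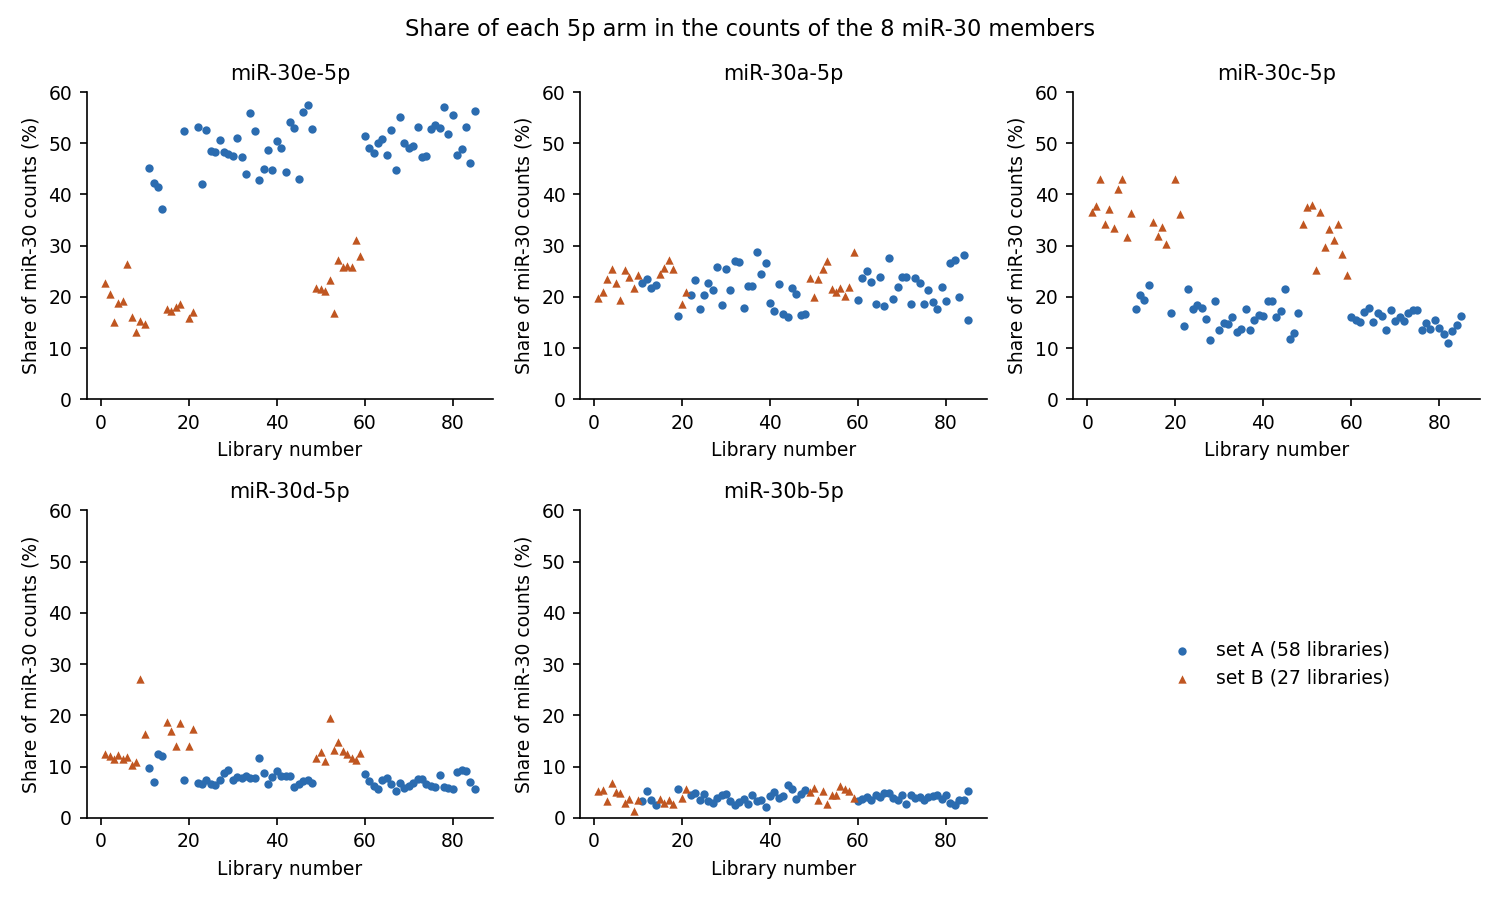
Share of each 5p arm in the counts of the 8 members (y axis, percent) against library number (x axis), 1 point per library, with circles for the 58 libraries of set A and triangles for the 27 of set B. MiR-30e-5p lies at 37.1% or above in set A and at 31.1% or below in set B, miR-30c-5p lies at 22.4% or below in set A and at 24.3% or above in set B, and miR-30a-5p and miR-30b-5p overlap.

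MiR-30a-5p, which differs from miR-30e-5p by a single base, had 20980 counts and 22.1% of the family (21.8% to 22.4%). Its counts per library ran from 26 over a median of 229 to 725. Its share, 15.5% to 28.7% in set A against 18.7% to 28.7% in set B, overlapped almost fully, with medians of 21.8% and 23.5%. In set A miR-30a-5p exceeded miR-30c-5p in 50 of 58 libraries, and in set B it did so in 2 of 27.

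MiR-30d-5p had 8448 counts and 8.90% of the family (8.72% to 9.08%), with 14 to 237 counts per library and a median of 90. Its share was 5.25% to 12.5% in set A against 10.3% to 27.2% in set B, and 3 libraries of set A reached the lowest share of set B. The 27.2% came from library 9, where miR-30d-5p had 164 counts. MiR-30b-5p, which is transcribed in a cluster with miR-30d, was the least abundant 5p member in 84 of 85 libraries. It had 3859 counts and 4.07% of the family (3.94% to 4.19%), with a median of 42 counts per library and a lowest count of 3. Its share was 2.19% to 6.38% in set A against 1.32% to 6.84% in set B. The lowest share, from 8 counts, was also in library 9.

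The order of the 5p members was therefore miR-30e, miR-30a, miR-30c, miR-30d and miR-30b over set A, and miR-30c, miR-30a, miR-30e, miR-30d and miR-30b over set B by median share. In set B miR-30e-5p exceeded miR-30a-5p in 8 of 27 libraries, so these neighbours changed places between libraries. These orders are of counts of mature miRNAs of nearly equal length, 22 or 23 bases where the sequence is given above, and were not corrected for how well each sequence is captured in a library.

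The log2 ratio of miR-30e-5p to miR-30c-5p needs no normalization between libraries. It ran from 0.72 to 2.25 in set A, with a median of 1.65, and from -1.71 to 0.21 in set B, with a median of -0.87. No library of one set lay within the range of the other, but how many ratios of other miRNAs part the sets in this way was not counted. The nearest values were those of library 59 in set B, with 390 and 338 counts, and of library 14 in set A, with 43 and 26 counts.

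**Figure D2:**
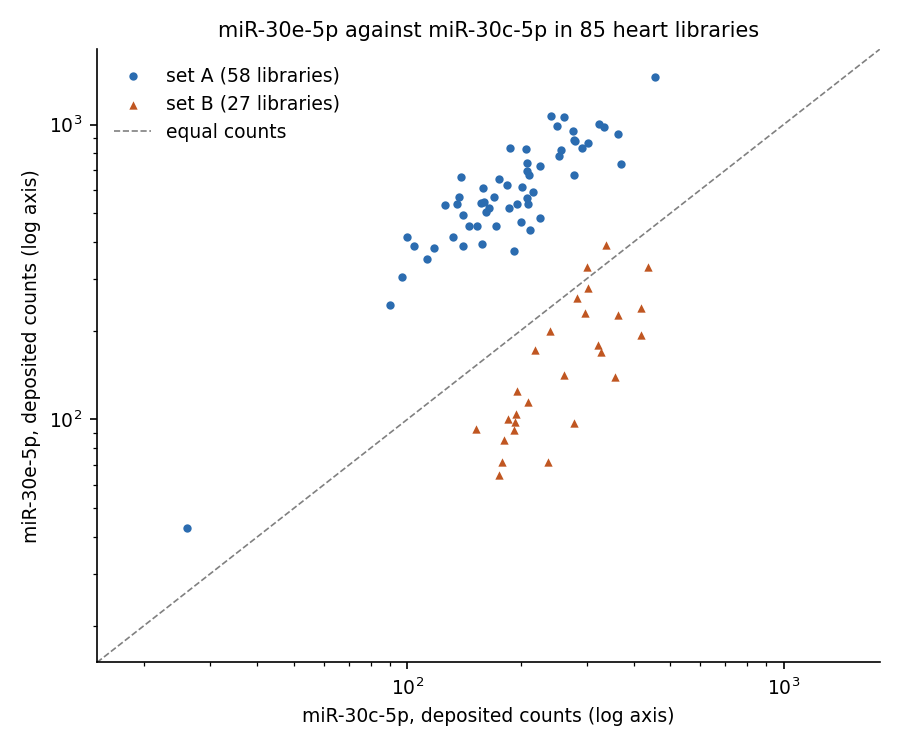
Deposited counts of miR-30e-5p (y axis, log scale) against those of miR-30c-5p (x axis, log scale) in each of the 85 libraries, with circles for set A, triangles for set B and a dashed line where counts are equal. All 58 libraries of set A lie above the line, and 25 of the 27 of set B lie below it.

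The split of the family among its members varied beyond counting error. The chi-square per degree of freedom of the table of 8 members by libraries, which is about 1 where counting error alone is at work, was 15.7 over all libraries, 3.41 within set A and 4.61 within set B. Within set A the values for single members against the rest of the family were 8.52 for miR-30a-5p, 8.04 for miR-30e-5p, 5.32 for miR-30c-5p, 3.76 for miR-30d-5p and 2.33 for miR-30b-5p. Within set B they were 3.44, 11.2, 9.09, 7.89 and 2.81 in the same order. The 3p arm of miR-30e stayed near 1 in both sets, at 1.15 and 1.10, and that of miR-30a at 1.004 in set A against 3.62 in set B.

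The 3p arms were scarce. MiR-30a-3p had 690 counts, a median of 7 per library and a range of 2 to 25. MiR-30e-3p had 796 counts, a median of 9 per library and a range of 2 to 22. MiR-30d-3p had 58 counts and was at 0 in 41 libraries, where a count of 0 allows up to 3. None of the 3p arms passed the filter on low counts, which kept 51 miRNAs, among them the 5 members that are 5p arms. All intervals and limits cover counting error only and leave out the spread between libraries. Whether molecular identifiers were counted is not given in the sources used here.

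For miR-30a there were 30.4 counts of the 5p arm for each count of the 3p arm over all libraries (95% interval 28.2 to 32.8). In set A the ratio was 42.5 (38.4 to 47.1) and in set B 15.8 (14.1 to 17.7). Per library the log2 ratio, with 0.5 added to each count, ran from 3.41 to 6.99 in set A, with a median of 5.28, and from 2.87 to 5.55 in set B, with a median of 4.01. The ranges overlapped widely, and 42 libraries of set A lay at or below the highest of set B.

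For miR-30e the ratio was 51.7 (48.2 to 55.5) over all libraries, 77.5 (70.7 to 84.8) in set A and 14.2 (12.7 to 15.9) in set B. Per library the log2 ratio ran from 4.12 to 8.21 in set A, with a median of 6.18, and from 2.39 to 4.73 in set B, with a median of 3.63. The sets met in 1 library of set A, library 14, which had 43 counts of the 5p and 2 of the 3p arm. As levels, the 5p arm of miR-30e took 4.39% of all counts in set A against 1.49% in set B, and the 3p arm took 0.0566% and 0.105%. For miR-30a the 5p arm took 1.92% and 1.60% and the 3p arm 0.0452% and 0.102%.

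**Figure D3:**
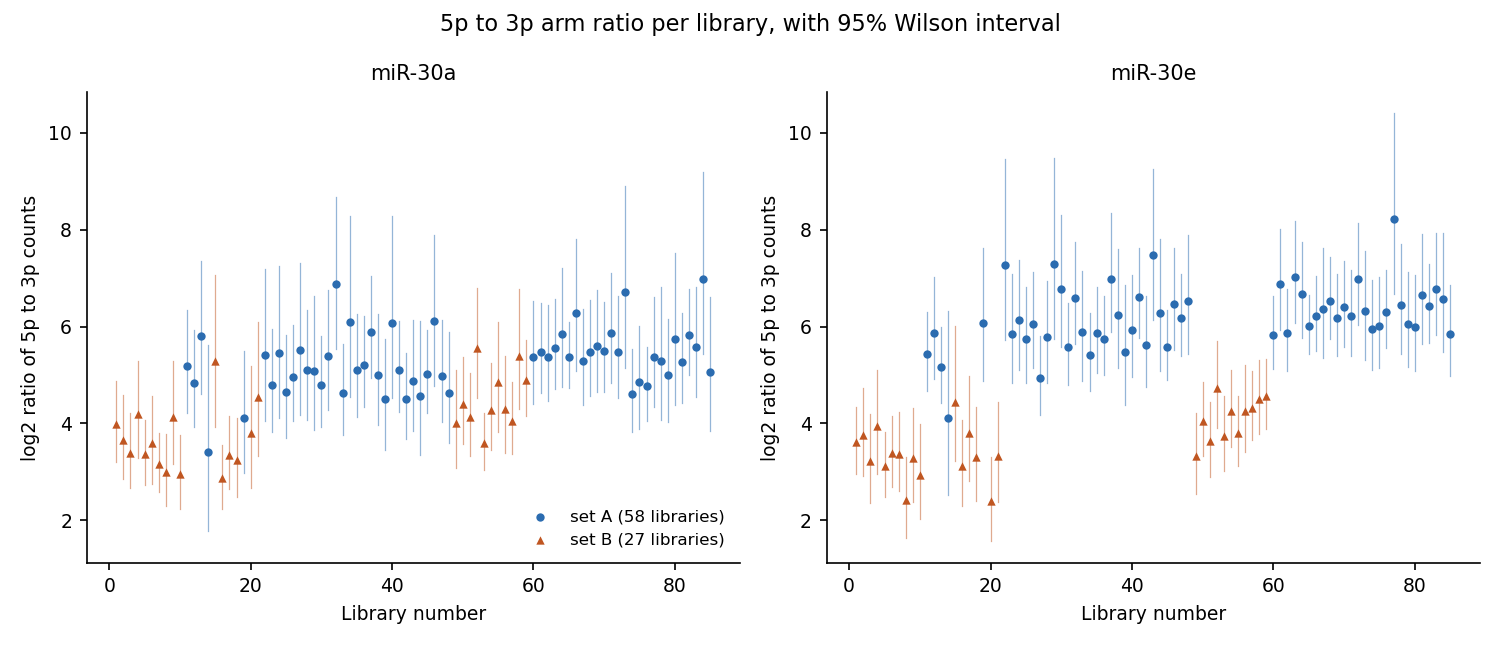
Log2 ratio of 5p to 3p counts, with 0.5 added to each (y axis), for miR-30a and miR-30e against library number (x axis), with circles for set A, triangles for set B and vertical lines for the 95% Wilson interval of each library. For miR-30e the medians are 6.18 in set A against 3.63 in set B with 1 library of set A within the range of set B, and for miR-30a they are 5.28 and 4.01 with wide overlap.

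The miR-30d ratio was 146 (113 to 188) over all libraries, and its intervals in set A (101 to 188) and set B (103 to 258) overlapped. Within set A none of the 3 ratios passed the threshold for variation beyond counting error. The chi-square per degree of freedom was 0.920 for miR-30a (p = 0.65), 1.26 for miR-30e (p = 0.088) and 0.824 for miR-30d (p = 0.83). Within set B it was 2.82 for miR-30a (p = 2.1e-06), 2.13 for miR-30e (p = 0.00068) and 0.880 for miR-30d (p = 0.64). Among the further miR-30 rows, miR-30c-1-3p had 26 counts and miR-30c-2-3p had 27, so 49.1% of the miR-30c 3p counts (36.1% to 62.1%) came from the Nfyc locus. In set A the counts were 9 and 16, which gives an interval of 20.2% to 55.5% for the Nfyc locus, and in set B 17 and 11, which gives 42.4% to 76.4%, so the order of the loci differed between the sets but the intervals overlapped. The 5p arm of miR-30c cannot be assigned to either locus. MiR-30f, opposite miR-30e, had 13 counts.

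In set B the arm ratios of miR-30a and miR-30e moved together over the 27 libraries, with r = 0.760 (permutation p = 2e-05, adjusted p = 0.00036) and rho = 0.765 (permutation p = 1e-05, the smallest the permutations can give, adjusted p = 0.00018). Without libraries 52 and 58, the farthest from the median, r was 0.685 (adjusted p = 0.0029), and given the log2 library total it was 0.70 (adjusted p = 0.00084). In set A it was 0.295 (permutation p = 0.025, adjusted p = 0.045) with rho = 0.278 (permutation p = 0.037, adjusted p = 0.066). That value rested on libraries 14 and 84, leaving r at 0.132 without them (adjusted p = 0.43) and 0.151 without library 14 alone (adjusted p = 0.39). It was 0.0781 given the total (adjusted p = 0.71). P-values of this family were two-sided and were adjusted over 18 relations, or over 12 where the total was held fixed.

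Both ratios also rose with library number in set B, with r = 0.579 for miR-30a (p = 0.0019 by permutation, 0.0056 adjusted, with rho = 0.559 and its p = 0.0028 by permutation) and r = 0.608 for miR-30e (p = 0.00091 by permutation, 0.0041 adjusted, with rho = 0.562 and its p = 0.0031 by permutation). Without the 2 farthest libraries these were 0.499 and 0.633 (adjusted p = 0.041 and 0.0085). Set B holds no library numbered between 21 and 49. A steady rise in set B was not tested apart from a step between its earlier and later libraries. The ratio of miR-30e followed the log2 library total in set B with r = 0.682 (p = 0.00015 by permutation, 0.00090 adjusted, with rho = 0.642 and its p = 0.00043 by permutation) and that of miR-30a with r = 0.441 (p = 0.022 by permutation, 0.043 adjusted, with rho = 0.452 and its p = 0.019 by permutation). The miR-30a value was 0.292 without libraries 52 and 58 (adjusted p = 0.23). Given the total, neither ratio followed library number past the threshold by r (adjusted p = 0.14 and 0.35). By rho, miR-30a still passed it, at 0.522 (p = 0.0060 by permutation, 0.036 adjusted), and miR-30e did not, at 0.342 (0.30 adjusted). In set A both ratios followed the total, with r = 0.524 for miR-30a (p = 7e-05 by permutation, 0.00063 adjusted, with rho = 0.486 and its p = 0.00015 by permutation) and 0.449 for miR-30e (p = 0.0012 by permutation, 0.0042 adjusted, with rho = 0.352 and its p = 0.0072 by permutation). Without their 2 farthest libraries, library 14 among them, the values were 0.411 (adjusted p = 0.0092) and 0.259 (adjusted p = 0.14). With 1 added to each count in place of 0.5, the values over all of set A were 0.583 and 0.511, so their size depends on the constant added. With library number the values in set A were 0.329 for miR-30a (p = 0.011 by permutation, 0.025 adjusted, with rho = 0.284 and its p = 0.031 by permutation, 0.062 adjusted) and 0.381 for miR-30e (p = 0.0027 by permutation, 0.0070 adjusted, with rho = 0.389 and its p = 0.0029 by permutation, 0.0093 adjusted). Both were lost by r without the 2 farthest libraries (0.215 and 0.290, adjusted p = 0.22 and 0.090) and given the total (adjusted p = 0.71 and 0.38). By rho, miR-30e was still called without the 2 farthest, at 0.335 (permutation adjusted p = 0.044).

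Whether members of 1 genomic cluster vary together was asked within each set from log2 CPM (counts scaled to a common library size, here with TMM, a normalization by trimmed means). The pairs were miR-30a with miR-30c, miR-30b with miR-30d and miR-30e with miR-30c. None of these pairs was positively related past the threshold in either set, where 11.2% of all 1275 pairs of kept miRNAs were called positive in set A against 16.8% in set B. P-values come from two-sided permutation tests and were adjusted over all 1275 pairs of a set. Since reads of miR-30c-5p cannot be assigned to either of its loci, the pairs with it cannot show how 1 cluster alone varies.

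For miR-30a-5p with miR-30c-5p, r was 0.193 in set A (p = 0.15 by permutation, 0.30 adjusted, with rho = 0.217 and its p = 0.099 by permutation) and 0.248 in set B (p = 0.21 by permutation, 0.36 adjusted, with rho = 0.221 and its p = 0.27 by permutation). Without the 2 farthest libraries of each set it was 0.226 and 0.252. With CPM that was not scaled by TMM, the value in set A was 0.325 and passed the threshold (adjusted p = 0.040). For miR-30e-5p with miR-30c-5p, r was -0.065 in set A (p = 0.63 by permutation, 0.77 adjusted, with rho = -0.035 and its p = 0.79 by permutation) and -0.367 in set B (p = 0.061 by permutation, 0.14 adjusted, with rho = -0.310 and its p = 0.12 by permutation). Without the 2 farthest libraries it was -0.092 and -0.319.

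MiR-30b-5p and miR-30d-5p were negatively related in set B, with r = -0.484 (p = 0.012 by permutation, 0.042 adjusted, with rho = -0.283 and its p = 0.15 by permutation), where 13.9% of all pairs were called negative. This rested on library 9, the one with 8 counts of miR-30b-5p and 164 of miR-30d-5p. Without it r was -0.193 (adjusted p = 0.53), and without libraries 9 and 18 it was -0.108 (adjusted p = 0.73). In set A r was -0.290 (p = 0.028 by permutation, 0.097 adjusted, with rho = -0.292 and its p = 0.026 by permutation), and -0.264 without the 2 farthest libraries, where 11.3% of all pairs were called negative.

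The members that were positively related came from different clusters. In set B miR-30b-5p rose with miR-30e-5p, with r = 0.604 (p = 0.00048 by permutation, 0.0045 adjusted, with rho = 0.574 and its p = 0.0018 by permutation), and 0.505 without libraries 9 and 18 (adjusted p = 0.039). It was the only 1 of the 10 member pairs called positive in set B. In set A the same pair had r = 0.387 (p = 0.0029 by permutation, 0.020 adjusted, with rho = 0.297 and its p = 0.024 by permutation, 0.11 adjusted). This rested on library 14, the shallowest, which had 3 counts of miR-30b-5p. The r was 0.223 in the deeper libraries, which leave out library 14 alone (adjusted p = 0.25), and 0.222 without libraries 14 and 32 (adjusted p = 0.24). In set A miR-30a-5p and miR-30d-5p had r = 0.366 (p = 0.0049 by permutation, 0.029 adjusted, with rho = 0.264 and its p = 0.045 by permutation, 0.16 adjusted), which rested on libraries 37 and 82 and was 0.202 without them (adjusted p = 0.29). So neither pair called in set A by r passed the threshold by rho. The other 8 of 10 pairs were not called in set A. The median r over the 10 member pairs was 0.108 in set A against -0.038 in set B, beside 0.0054 and 0.0078 over all pairs.

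**Figure D4:**
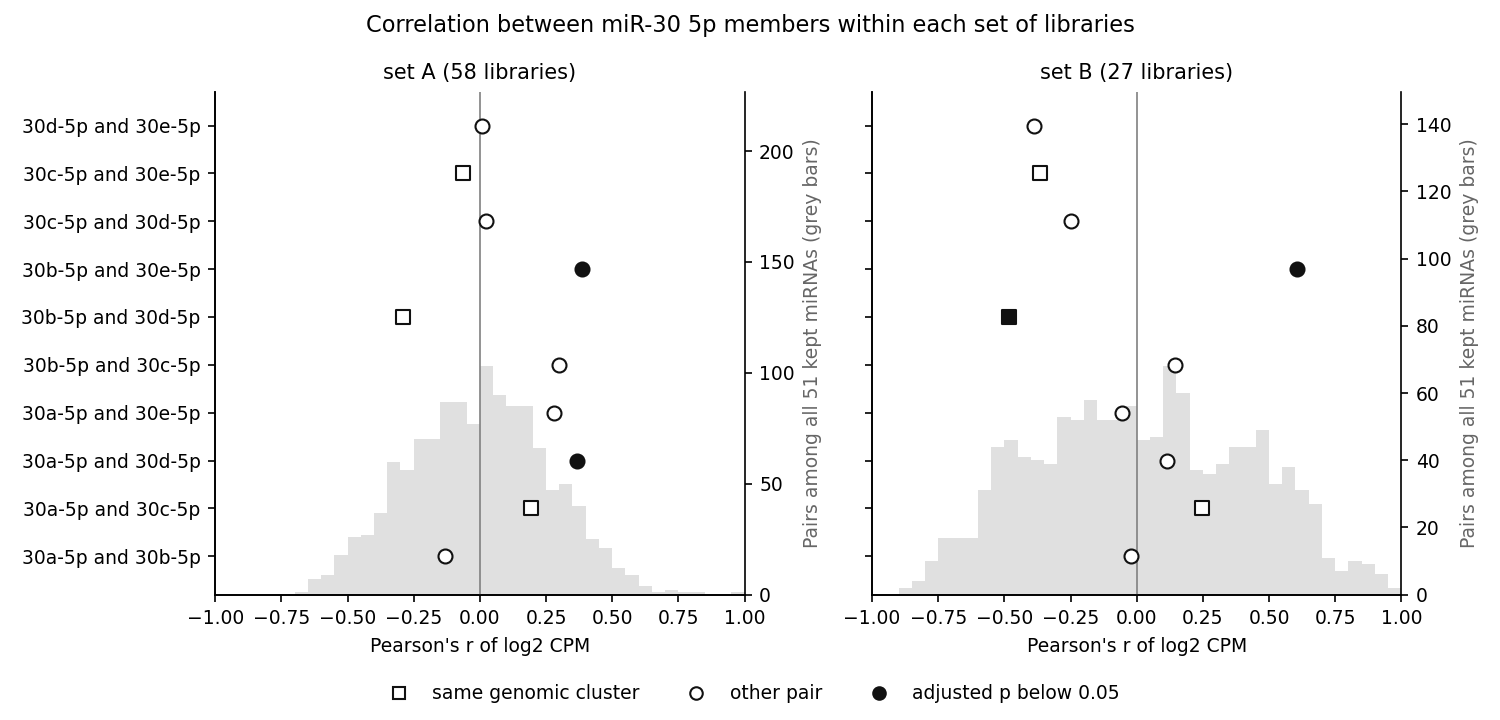
Pearson's r of log2 CPM (x axis) for the 10 pairs of 5p members (y axis), in set A on the left and set B on the right, with squares for pairs of 1 genomic cluster and filled symbols for an adjusted p below 0.05. Grey bars count the pairs among all 51 kept miRNAs in steps of r (right axis), and the filled symbols are miR-30a with miR-30d and miR-30b with miR-30e in set A, and miR-30b with miR-30d (negative, lost without library 9) and miR-30b with miR-30e in set B.

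The standard deviation of the log2 ratio of a pair, with the part due to counting taken off, needs no normalization. In set A it was smallest for miR-30b with miR-30c, at 0.206, and for miR-30b with miR-30e, at 0.213, and 7.69% and 8.78% of all pairs had a smaller one. That order depended on the counting part. Before it was taken off, these pairs had 0.334 and 0.326, and the smallest value was 0.313, for miR-30e with miR-30c. With the counting part taken off, the cluster pairs had 0.309 for miR-30a with miR-30c, 0.395 for miR-30b with miR-30d and 0.284 for miR-30e with miR-30c, beside a median of 0.359 over all pairs. In set B the cluster pairs had 0.264, 0.631 and 0.466 in that order, beside a median of 0.449. There the smallest value among the members, 0.264, was that of miR-30a with miR-30c, and 16.0% of all pairs had a smaller one.

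Outside the family, the miRNA with the highest r in set A was the cardiomyocyte miRNA miR-208a-3p for miR-30b-5p (r = 0.569, rho = 0.591, adjusted p = 0.00040) and miR-101a-3p for miR-30e-5p (r = 0.632, rho = 0.572, adjusted p = 0.00040). It was the muscle miRNA miR-133a-3p for miR-30c-5p (0.345, rho = 0.282, adjusted p = 0.042), miR-378a-3p, which lies in Ppargc1b, for miR-30d-5p (0.388, rho = 0.374, adjusted p = 0.019) and the endothelial miR-126a-3p for miR-30a-5p (0.282, rho = 0.277, adjusted p = 0.11). In set B it was miR-21a-5p for miR-30e-5p (0.777, rho = 0.772, adjusted p = 0.00028), miR-126a-5p for miR-30b-5p (0.750, rho = 0.677, adjusted p = 0.00044), miR-125a-5p for miR-30d-5p (0.624, rho = 0.438, adjusted p = 0.0075), miR-322-5p for miR-30c-5p (0.529, rho = 0.539, adjusted p = 0.022) and miR-101a-3p for miR-30a-5p (0.249, rho = 0.157, adjusted p = 0.36). Each of these was picked as the highest of the miRNAs outside the family, and no member had the same nearest miRNA in both sets. Without the 2 farthest libraries of each member, r ran from 0.265 to 0.543 in set A, and in set B from -0.125 for miR-30a-5p to 0.726 for miR-30e-5p.

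The animal number and the library number are the labels that differ between the libraries. Ordered by library number, the animal number rose at all 84 steps, so a relation with one cannot be told apart from a relation with the other, here and for the arm ratios above. The trend with library number was fitted in edgeR over all 51 kept miRNAs. Over all libraries miR-30e-5p rose by 0.17 on the log2 scale per 10 libraries (SE 0.034, edgeR adjusted p = 9.1e-06). MiR-30a-5p rose by 0.050 (SE 0.016, edgeR adjusted p = 0.0026) and miR-30b-5p by 0.052 (SE 0.018, edgeR adjusted p = 0.0070). MiR-30c-5p fell by 0.068 (SE 0.013, edgeR adjusted p = 3.9e-06) and miR-30d-5p fell by 0.046 (SE 0.014, edgeR adjusted p = 0.0016). So 3 of 5 members were called rising and 2 falling, where 43.1% of all kept miRNAs were called rising and 41.2% falling. With CPM not scaled by TMM, which lowers the median slope of all kept miRNAs from -0.0080 to -0.050, miR-30a-5p and miR-30b-5p were at 0.0083 and 0.012 and were no longer called.

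Since the sets take different library numbers, the trend was also fitted within the sets. With the set as a covariate, miR-30e-5p rose by 0.057 (SE 0.010, edgeR adjusted p = 5.4e-06) and miR-30c-5p fell by 0.028 (SE 0.011, edgeR adjusted p = 0.021), where 31.4% of miRNAs were called rising and 25.5% falling. The other members were not called. In set A alone miR-30e-5p rose by 0.043 (SE 0.012, edgeR adjusted p = 0.0019), where 21.6% were called rising, but with CPM not scaled by TMM it was at 0.014 (edgeR adjusted p = 0.28), and miR-30c-5p and miR-30d-5p then fell by 0.046 and 0.056 (edgeR adjusted p = 0.0082 and 0.0050). In set B alone miR-30e-5p rose by 0.069 (SE 0.025, edgeR adjusted p = 0.028), where 15.7% were called rising, and miR-30c-5p fell by 0.073 (SE 0.020, edgeR adjusted p = 0.0055), where 19.6% were called falling. Both were also called there with CPM not scaled by TMM, at 0.082 and -0.060. Since set B holds no library between 21 and 49, these slopes may be a step between its earlier and later libraries, which was not tested.

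Set against the other 5p members of the same library, which needs no normalization, miR-30e-5p rose with library number in both sets. The r of its log2 ratio to the sum of the others was 0.404 in set A (p = 0.0016 by permutation, 0.0054 adjusted, with rho = 0.377 and its p = 0.0038 by permutation) and 0.648 in set B (p = 0.00040 by permutation, 0.0026 adjusted, with rho = 0.544 and its p = 0.0038 by permutation). MiR-30c-5p fell in both, with r = -0.390 in set A (p = 0.0026 by permutation, 0.0064 adjusted, with rho = -0.391 and its p = 0.0028 by permutation) and -0.536 in set B (p = 0.0039 by permutation, 0.0078 adjusted, with rho = -0.541 and its p = 0.0038 by permutation). Leaving out the 2 libraries of each set that lie farthest from the median library number (84 and 85, and 58 and 59) gave 0.412 and 0.570 for miR-30e-5p (permutation adjusted p = 0.0082 and 0.0090). Leaving out the 2 with the farthest ratio (14 and 47, and 58 and 59) gave 0.378 and 0.570 (permutation adjusted p = 0.021 in each set). The values of miR-30c-5p rested on few libraries. In set A r was -0.396 without libraries 84 and 85 (permutation adjusted p = 0.0083) but -0.307 without libraries 14 and 82, the farthest in ratio (permutation adjusted p = 0.051). In set B it was -0.430 without libraries 58 and 59 (permutation adjusted p = 0.065) and -0.434 without libraries 52 and 59 (permutation adjusted p = 0.060). MiR-30d-5p fell in set A, with r = -0.440 (p = 0.00053 by permutation, 0.0026 adjusted, with rho = -0.369 and its p = 0.0044 by permutation), and -0.342 without libraries 13 and 14 (permutation adjusted p = 0.033). The set B value was -0.141 (p = 0.49 by permutation, 0.71 adjusted, with rho = 0.116 and its p = 0.56 by permutation). MiR-30a-5p and miR-30b-5p had values between -0.025 and 0.219 and were not called in either set. These 10 relations were adjusted together, and a ratio within the family shows unequal change and does not say which member changed. With the gap in the numbers of set B, its values were not tested apart from a step between its earlier and later libraries.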

How the data were processed

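Total RNA was extracted with a Qiagen miRNeasy kit, libraries were made with a QIAseq miRNA kit, and the authors deposited 1 table of whole-number counts per mature miRNA, not normalized. The submitters' processing notes name HISAT2 2.0.6, HTSeq 0.13.5 and build mm10. Adapter trimming, the miRNA annotation, the strand setting, the handling of reads that match several loci and the use of molecular identifiers are not given in the sources used here. No 2 libraries were alike within sampling noise (over 3570 pairs, the chi-square per degree of freedom was at least 1.36).

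Counts were analysed in R 4.3.3 with edgeR 4.0.16 (TMM, filterByExpr with a minimum count of 10 in 63 libraries, log2 CPM with a prior count of 2, glmQLFit and glmQLFTest, Benjamini-Hochberg threshold 0.05), DESeq2 1.42.0 as an alternative, and in Python 3.11.15 with scipy 1.17.1 for 100000 permutations and 95% Wilson intervals. The filter applied its minimum count as a CPM, scaled to the median library total, and not as a raw count in each library. It kept 51 miRNAs with 95.7% of the counts. Sets of libraries came from 2-means on the first principal component without the miR-30 rows. The arm ratio was log2((5p + 0.5)/(3p + 0.5)). The scripts were tested on simulated data. Named miRNAs were the 8 members, the other miR-30 rows, the cell type markers and, for each kept member, the miRNA outside the family with the highest r in each set. The members and lists were chosen with earlier results of these data known. Alternatives were other normalizations, prior counts, pseudocounts and filters, deeper libraries (84, with at least 3062 counts), partial correlations, and leaving out libraries. The relations within the family by library number and their repeats without the farthest libraries, the values per set, CPM without TMM within a set and the fit without library 9 were added after seeing the data. The endothelial markers had a median of 6.33% of counts, the smooth muscle markers 4.05%, the erythroid markers 0.344%, the liver marker miR-122-5p 0.0218% and the neuronal markers 0.0252%.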

Additional observations from a re-analysis of the deposited data

How the results depend on the processing

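The shares kept within 1 SD of their median under every alternative except set B alone, where miR-30c-5p was at 34.2%, miR-30d-5p at 12.7%, miR-30e-5p at 19.2% and miR-30e-3p at 1.49%, and so did the log2 arm ratios except set B alone, at 4.01 for miR-30a and 3.63 for miR-30e. The denominator of all 12 miR-30 rows, the 84 deeper libraries and pooled counts moved none of them beyond that. The SD was taken over the libraries of both sets, so it holds the difference between them and is a wide limit. MiR-30a-3p, with an SD of 0.712, counted as kept at 1.29% in set B against 0.626% over all libraries. Of the cluster pairs, miR-30a with miR-30c in set A passed with CPM without TMM (r = 0.325, permutation adjusted p = 0.040), and miR-30b with miR-30d in set B was lost with CPM without TMM (-0.397), with TMM over every miRNA with a count (-0.158), without library 9 (-0.193) and without the 2 farthest libraries (-0.108). Member pairs called positive in set A, 2 in number, were 5 with CPM without TMM, 4 with TMM over every miRNA, 1 in the deeper libraries, 1 as partial correlations and 0 without the 2 farthest libraries. The 1 member pair called negative in set B became 0 with CPM without TMM, with TMM over every miRNA, without library 9 and without the 2 farthest libraries, and 2 as partial correlations. Of all 1275 pairs, 11.2% were positive and 11.3% negative in set A, against 311 positive with CPM without TMM, 75 positive and 83 negative as partial correlations, and 53 negative with TMM over every miRNA. In set B 16.8% were positive and 13.9% negative, against 141 positive and 82 negative without library 9 and 80 negative with TMM over every miRNA.

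The trend with library number called 22 miRNAs rising and 21 falling. It called 15 and 29 with CPM without TMM, 50 and 49 of 548 with no filter, 11 and 12 in set A alone, 16 and 13 with the set as a covariate, and 8 and 10 in set B alone. With CPM without TMM it called 5 and 20 in set A, against 9 and 6 in set B. The slope of miR-30a-5p turned negative in set B (-0.020, and -0.0074 with CPM without TMM) and with CPM without TMM in set A (-0.011), and that of miR-30b-5p with CPM without TMM in set A (-0.017), none of them called. With no filter miR-30d-5p was no longer called (adjusted p = 0.68). In that fit 2 of the 3p arms were called falling, among the 49 of 548. Their slopes were -0.138 for miR-30a-3p and -0.0795 for miR-30e-3p (edgeR adjusted p = 0.00010 and 0.0074), while their 5p arms were called rising. Of the arm ratios in set A, miR-30a with miR-30e was lost as a partial correlation (0.0781), without the 2 farthest libraries (0.132) and in the deeper libraries (0.151). With library number, miR-30a was lost in the same 3 settings (0.0690, 0.215 and 0.272) and miR-30e by r in the first and the second (0.187 and 0.290). By rho, miR-30e was still called in the second (0.335, permutation adjusted p = 0.044). The relation of miR-30e with the total was lost by r without the 2 farthest (0.259) and in the deeper libraries (0.248). In the deeper libraries its rho, 0.318, was still called (permutation adjusted p = 0.042). With a pseudocount of 1, the ratio of miR-30d in set A was called with that of miR-30a (0.361), that of miR-30e (0.318) and the total (0.459). Their permutation adjusted p-values were 0.010, 0.022 and 0.0010, and none was called with 0.5. In set B the relations with library number were lost by r as partial correlations (0.437 for miR-30a and 0.335 for miR-30e). By rho, that of miR-30a was still called (0.522, permutation adjusted p = 0.036). The r of miR-30a with the total was lost without the 2 farthest (0.292) and, since p-values are adjusted over both sets, in the deeper libraries (0.441). There its rho, 0.452, was still called (permutation adjusted p = 0.042). The causes were not tested. The 3p arms had a median of 7 counts per library for miR-30a and 9 for miR-30e, which limits every single ratio.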
